A study of Arabidopsis thaliana with 27 samples.

Results

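Reduction-based iron uptake was followed through 10 Arabidopsis genes in RNA from sorted root cells. These are FRO2 (AT1G01580), IRT1 (AT4G19690), AHA2 (AT4G30190), FIT (AT2G28160), bHLH38 (AT3G56970), bHLH39 (AT3G56980), bHLH100 (AT2G41240), bHLH101 (AT5G04150), MYB10 (AT3G12820) and MYB72 (AT1G56160). They were chosen by name as the uptake machinery and its regulators, and all 10 are among the 34262 gene entries counted in each library. The choice rule uses no expression value, but it was made with earlier results of these data known.

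The 27 libraries came from 3 sorted root cell types, each with 3 libraries labelled flg22, 3 labelled Pep1 and 3 labelled mock. flg22 is a peptide of bacterial flagellin, Pep1 is an elicitor peptide of the plant itself, and mock roots received water. All plants were in the Col-0 background and carried a GFP reporter of 1 cell type. The epidermis line used the GL2 promoter, which is active in non-hair cells, the cortex line used pCORTEX, and the pericycle line was the enhancer trap E3754, which marks xylem-pole pericycle. The plants were grown on plates of ATS medium, for 10 days by the sample labels and somewhat longer by the methods of the study. The methods describe no iron shortage treatment and do not give the iron level of the medium. Their roots were digested to protoplasts and GFP-positive cells were sorted, so that each library is a pool of sorted cells of 1 line. The elicitor dose is 1 mM in the sample labels and 1 µM in the design text and the methods. The labels give 1 h of treatment and the design text 2 h, and by the methods the longer time includes protoplasting and sorting. Replicates carry the numbers 1, 2 and 3, which the study's model treated as batches, and its methods describe independent biological experiments for each line.

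Plants such as Arabidopsis take up iron by first reducing it at the root surface. AHA2 pumps protons out of the cell and acidifies the soil solution, FRO2 reduces ferric iron to ferrous iron, and IRT1 carries the ferrous iron across the plasma membrane. FIT is the bHLH transcription factor that switches on FRO2 and IRT1 in root epidermis when iron is short. It acts in dimers with the bHLH proteins of subgroup Ib, which are bHLH38, bHLH39, bHLH100 and bHLH101. MYB10 and MYB72 are MYB factors that iron-starved plants need to grow, and MYB72 also takes part in root responses to beneficial microbes.

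In these sorted cells the regulator FIT and the reductase FRO2 were present and were highest in epidermis, AHA2 was abundant in every library, and the transporter IRT1 was all but absent. No line sorted root hair cells, so the levels in them are not known from these libraries. The upstream sequences of FIT and FRO2, the members with the clearest difference between cell types, and of the neighbouring genes bHLH38 and bHLH39 are given so that the promoter-proximal sequence of each stands beside its levels. Each run holds the 250 bases before the annotated start in RefSeq TAIR10.1, read 5′ to 3′ on the gene's strand, from chr2:12004408-12004657 (plus strand) for FIT, chr1:208745-208994 (plus strand) for FRO2, chr3:21085246-21085495 (minus strand) for bHLH38 and chr3:21087711-21087960 (minus strand) for bHLH39. Capitals mark the G-box CACGTG, a bHLH-type motif, and the core TTGAC of the W-box, the WRKY motif of immune genes, each searched on both strands.
FIT: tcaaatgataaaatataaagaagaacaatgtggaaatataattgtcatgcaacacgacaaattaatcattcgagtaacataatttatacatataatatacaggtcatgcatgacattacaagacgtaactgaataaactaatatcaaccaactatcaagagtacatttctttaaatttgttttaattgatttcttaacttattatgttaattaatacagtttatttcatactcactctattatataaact
FRO2: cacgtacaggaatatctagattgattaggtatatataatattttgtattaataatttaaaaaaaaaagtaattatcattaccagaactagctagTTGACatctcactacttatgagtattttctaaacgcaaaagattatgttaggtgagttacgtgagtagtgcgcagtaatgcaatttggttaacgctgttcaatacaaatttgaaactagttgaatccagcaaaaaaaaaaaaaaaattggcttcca
bHLH38: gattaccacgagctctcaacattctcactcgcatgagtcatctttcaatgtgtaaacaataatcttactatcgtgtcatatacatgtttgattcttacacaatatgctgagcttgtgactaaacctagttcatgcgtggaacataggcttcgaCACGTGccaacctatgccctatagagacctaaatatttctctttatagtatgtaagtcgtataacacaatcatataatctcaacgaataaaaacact
bHLH39: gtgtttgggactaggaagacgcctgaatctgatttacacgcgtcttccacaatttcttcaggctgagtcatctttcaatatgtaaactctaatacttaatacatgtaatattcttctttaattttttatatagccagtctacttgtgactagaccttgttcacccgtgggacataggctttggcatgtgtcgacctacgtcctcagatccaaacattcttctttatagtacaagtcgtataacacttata
The G-box stood upstream of 2 of the 10 members (bHLH38 and bHLH100), against 6.52% of the same windows of 27105 genes. The W-box core stood upstream of 3 members (FRO2, bHLH100 and MYB10), against 45% of all windows. The looser E-box CANNTG, which contains the G-box, was found upstream of 5 members and of 55.3% of all windows. A match is a run of letters and no measured binding site.

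Gene counts per library ran from 4172741 to 17188823 (median 9872815). Organelle, rRNA and ribosomal protein genes were then left out, and 2321405 to 12293801 counts (median 6537788) remained. CPM is the count of a gene scaled to 1e6 of these remaining counts after TMM scaling, and FPKM divides CPM by the exonic length in kilobases. The summed CPM of 4 non-hair epidermis genes (GL2, WER, TTG2 and MYB23) was 228 to 612 in epidermis, 22 to 56.6 in cortex and 0.628 to 59.5 in pericycle. The sum of 3 pericycle genes was 6.13 to 15.8 in epidermis, 7.73 to 38.4 in cortex and 607 to 1930 in pericycle. No cortex marker was checked, because the reference did not carry the names on the list. Of the root hair genes, EXPA7 had 51 counts over the 27 libraries, EXPA18 26, RSL4 446, RHD6 977 and COBL9 982. Pericycle held 353 counts of RSL4, 478 of RHD6 and 446 of COBL9, and epidermis 24, 228 and 369. A sum of 3 root cap genes was 86.5 to 220 CPM in epidermis, 1.13 to 39.1 in cortex and 3.3 to 100 in pericycle, so that epidermis and pericycle overlapped. A sum of 7 immune response genes set number 1 apart from numbers 2 and 3 in each cell type. In epidermis it was 1740 to 2400 CPM in number 3, 2100 to 2920 in number 2 and 390 to 1140 in number 1. By label the same sum was 1140 to 2880 CPM in flg22, 390 to 2100 in Pep1 and 668 to 2920 in mock, so that the labels overlapped. In cortex and pericycle the labels overlapped as well. Within numbers 1, 2 and 3 of epidermis, the sum was 1140, 2880 and 2400 CPM in flg22. It was 390, 2100 and 1940 CPM in Pep1 and 668, 2920 and 1740 CPM in mock. In no cell type did an elicitor lie above mock in every number, and Pep1 in pericycle lay below mock in each. Immune genes thus did not set the elicitor libraries above mock by this sum, although the study reported genes responding to each elicitor. Whether each library received the treatment on its label was not tested. Treatment values are therefore comparisons of labels, all with the number as a block, and number comparisons stand beside them.

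The uptake machinery was very uneven in level. Per kilobase, AHA2 had a median of 461 FPKM over the 27 libraries (range 161 to 1240) and FRO2 a median of 2.02 FPKM (0 to 7.02). IRT1 had 1 count in all 27 libraries together, in epidermis Pep1 replicate 1. A count of 0 allows up to 3 counts, so that IRT1 could reach at most 0.0338 FPKM over the 9 cortex libraries and 0.0295 FPKM over the 9 pericycle libraries, for counting error only. Among the regulators, FIT had a median of 24.1 FPKM (0.114 to 261) and was counted in every library. Its partners were far lower, with totals over the 27 libraries of 5 counts for bHLH38 (in 2 libraries), 175 for bHLH39 (20 libraries), 3 for bHLH100 (2 libraries) and 36 for bHLH101 (9 libraries). MYB10 had 170 counts in 15 libraries and MYB72 12 counts in 7 libraries. By counting error alone, the exact Poisson 95% interval of the total was 0.0253 to 5.57 counts for IRT1, 1.62 to 11.7 for bHLH38, 0.619 to 8.77 for bHLH100, 25.2 to 49.8 for bHLH101 and 6.2 to 21 for MYB72.

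The exons of the members were searched for stretches that recur in the genome, while the alignment of reads from near but unequal copies was not tested. IRT1 lies at chr4:10707344-10709015 (plus strand) and FRO2 at chr1:208995-213082 (plus strand) in TAIR10.1. No 100-base stretch of the exons of any member, or of the paralogs AHA1, IRT2 and FRO1, recurs elsewhere in the genome. bHLH38, bHLH101, MYB10 and MYB72 each overlap 1 gene on the opposite strand. Counting did not use strand, so reads in the overlap could not be assigned by it. How such reads were counted was not tested.

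**Figure D1:**
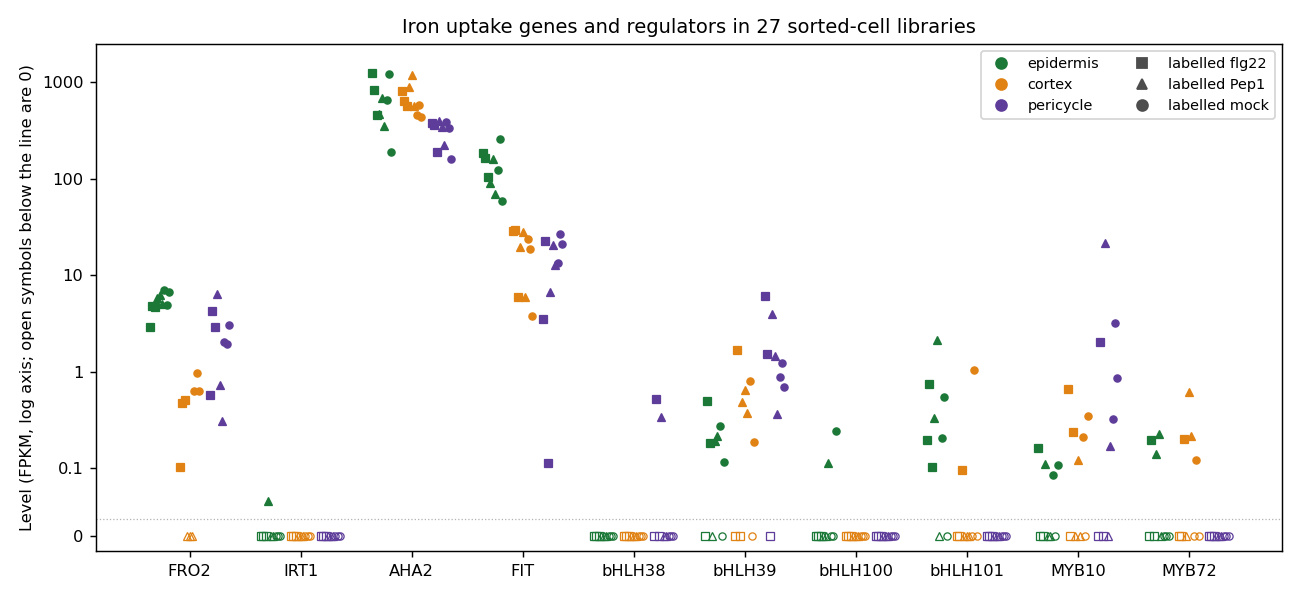
Level of each of the 10 members in each of the 27 libraries, in FPKM on a log axis, by cell type and treatment label, with replicates as points. FIT and FRO2 stand highest in epidermis, AHA2 is high in all 27 libraries, and IRT1, bHLH38 and bHLH100 are at 0 in nearly all.

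Cell types were compared over all 27 libraries, with each combination of treatment label and replicate number as a block, and over the 9 mock libraries alone. The fit over all labels has no term for a number effect within a cell type. It takes libraries of the same cell type and number as independent. Where such libraries deviate together, its standard errors and p-values can be too small. Differences are log2 differences with their standard error (SE) from edgeR's quasi-likelihood test, and a gene counts as called where its p, adjusted by Benjamini and Hochberg over all genes tested, was under 0.05. The filter on low counts kept 5 of the 10 members in the comparison of all libraries (FRO2, AHA2, FIT, bHLH39 and MYB10) and 4 in the mock comparison, which dropped bHLH39. Between epidermis and cortex 2 of the 5 were called, where 38.2% of all genes tested were called. Between epidermis and pericycle FRO2, FIT and AHA2 were called, and between cortex and pericycle FRO2 and AHA2, where 44.5% and 41.3% of all genes were called. bHLH39 and MYB10 entered these fits through pericycle, where they are highest, so the filter favoured a difference. With them the count called between epidermis and pericycle is 5, and their levels are given as a description. In mock libraries the counts were 2, 1 and 0 of 4, beside 13.3%, 18% and 7.12% of all genes. For the mock comparison of cortex and pericycle, 1 member had an unadjusted p under 0.05 and DESeq2 called 1 (FRO2).

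FIT, the regulator, was highest in epidermis. It ranged from 80.5 to 360 CPM (median 170) in epidermis, from 5.23 to 41 CPM (median 27.3) in cortex and from 0.157 to 37.2 CPM (median 18.6) in pericycle. Every epidermis library was above every library of the other cell types. The means were 187 ± 89 CPM in epidermis, 25.5 ± 14.6 CPM in cortex and 19.7 ± 12.9 CPM in pericycle. Each SD is over 9 libraries, which are 3 replicate numbers under 3 labels and not 9 independent experiments. FIT was higher in epidermis than in cortex by 3.00 on the log2 scale (SE 0.45, 7.98-fold, edgeR adjusted p = 8.87e-06) and than in pericycle by 3.35 (SE 0.47, 10.2-fold, adjusted p = 2.44e-06). Leaving out each library in turn kept these differences between 2.66 and 3.18 and between 3.06 and 3.75. In mock libraries alone they were 3.22 (SE 0.54, adjusted p = 0.00221) and 2.52 (SE 0.53, adjusted p = 0.00696). The mock difference from pericycle lost its call without pericycle mock replicate 2 (2.21, adjusted p = 0.0615). Cortex and pericycle did not differ by the test (0.35, SE 0.45, 95% interval −0.53 to 1.23, adjusted p = 0.565).

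The non-hair marker sum moved in the same direction between the cell types. FIT divided by that sum had a median of 0.42 in epidermis (0.299 to 1.1), 0.731 in cortex (0.238 to 1.16) and 0.477 in pericycle (0.194 to 1.46), and these ranges overlap. In pericycle flg22 replicate 3, the library with the lowest FIT level of 0.157 CPM (1 count), the 4 non-hair genes also had their lowest sum of 0.628 CPM. The part of epidermal RNA in the cortex and pericycle values of FIT was not tested. In bulk RNA, fewer cells of a type and less RNA per cell cannot be told apart. The run number in each library title was taken as its sequencing pool, which the labels do not name as such. No pool so defined held epidermis together with another cell type. Pool and cell type therefore cannot be told apart in the comparisons with epidermis. Cortex and pericycle mock libraries had separate pools too, so the same holds for their comparison in mock libraries.

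**Figure D2:**
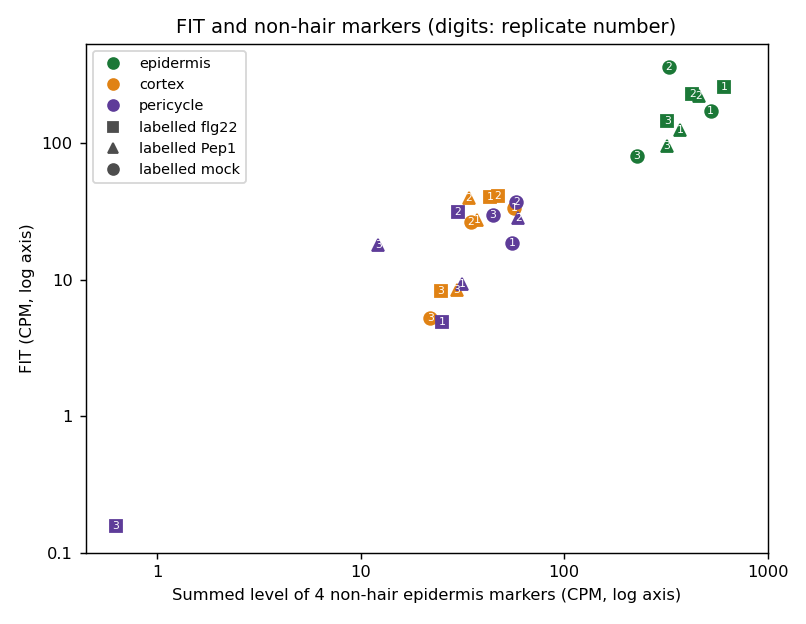
FIT level against the summed level of 4 non-hair epidermis genes in the 27 libraries, both in CPM on log axes, by cell type and replicate number. Epidermis libraries lie at 80.5 to 360 CPM of FIT and 228 to 612 CPM of the markers, and those of cortex and pericycle lie at or below 41 and 59.5 CPM.

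FRO2, the reductase, was highest in epidermis and lowest in cortex. It ranged from 8.29 to 20 CPM (median 14.6) in epidermis, from 0 to 2.81 CPM (median 1.37) in cortex and from 0.888 to 18.5 CPM (median 5.76) in pericycle. The epidermis and cortex libraries did not overlap, while pericycle overlapped with both. FRO2 was higher in epidermis than in cortex by 4.24 (SE 0.64, adjusted p = 9.33e-06, edgeR). That fitted value includes 3 cortex Pep1 libraries at 0 and so depends on the prior count. In mock libraries, where all cortex values were above 0, the difference was 3.04 (SE 0.57, 8.23-fold, adjusted p = 0.00428). FRO2 was lower in cortex than in pericycle, with a difference of −2.64 (SE 0.61, 6.25-fold lower, adjusted p = 0.0012), and the difference was −1.61 in mock libraries without a call (adjusted p = 0.0931).

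The FRO2 difference between epidermis and pericycle was less firm, at 1.60 (SE 0.58, 3.03-fold, edgeR adjusted p = 0.0264). It lost its call with total counts in place of TMM scaling (1.31, adjusted p = 0.0761) and without the replicate block (1.09, adjusted p = 0.12). The call was also lost without epidermis flg22 replicate 1 (1.51, adjusted p = 0.0528), epidermis Pep1 replicate 2 (1.26, adjusted p = 0.0982) or epidermis Pep1 replicate 3 (1.25, adjusted p = 0.086). The same held without pericycle Pep1 replicate 2 (1.48, adjusted p = 0.0552) or replicate 3 (1.40, adjusted p = 0.0617). In mock libraries the difference was 1.43 (SE 0.53, adjusted p = 0.0832). In the 1 pool that held cortex and pericycle Pep1 libraries, 2 of each, FRO2 was at 0 in both cortex libraries and at 18.5 and 2.1 CPM in the pericycle libraries.

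AHA2, the proton pump, had the highest level per kilobase of the members in each cell type, with median levels of 663 FPKM in epidermis, 589 FPKM in cortex and 343 FPKM in pericycle. In CPM it ranged from 706 to 4590 CPM (median 2450) in epidermis, from 1620 to 4410 CPM (median 2180) in cortex and from 596 to 1460 CPM (median 1270) in pericycle. Every cortex library was above every pericycle library, and epidermis overlapped with both. AHA2 was higher than in pericycle by 1.05 in epidermis (SE 0.20, 2.06-fold, adjusted p = 0.000143, edgeR) and by 1.18 in cortex (SE 0.20, 2.26-fold, adjusted p = 5.15e-05). The difference between cortex and pericycle was 1.48 in the pool shared by Pep1 libraries of both cell types (adjusted p = 0.0356). Epidermis and cortex did not differ by the test (−0.13, SE 0.20, 95% interval −0.52 to 0.26, adjusted p = 0.653). In mock libraries no AHA2 difference was called. Its difference between epidermis and pericycle was 1.03 (adjusted p = 0.125) there, and 1.46 (adjusted p = 0.0236) once epidermis mock replicate 3 was left out.

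The subgroup Ib genes and the MYB genes were sparse, and bHLH39 and MYB10 had most of their counts in pericycle, the only cell type in which they passed the filter on their own. bHLH39 had 12 counts over the epidermis libraries, 30 over cortex and 133 over pericycle. Per library this was at most 0.615 CPM in epidermis, 2.05 CPM in cortex and 7.49 CPM in pericycle, and the ranges overlapped from 0. Of the pericycle counts, 55 came from flg22 replicate 1.

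MYB10 had 5 counts in epidermis, 13 in cortex and 152 in pericycle. In pericycle the counts of replicates 1, 2 and 3 were 0, 19 and 0 in flg22, 76, 0 and 1 in Pep1 and 4, 44 and 8 in mock, so that 3 of the 9 libraries held most of them. The cell types overlapped at 0. MYB72, its relative, had 4 counts in epidermis, 8 in cortex and 0 in pericycle.

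The few counts of the remaining partners of FIT fell in different cell types. bHLH101 had 26 counts in epidermis, 10 in cortex and 0 in pericycle, of which 10 were in epidermis Pep1 replicate 2 and 9 in cortex mock replicate 2. All 3 counts of bHLH100 were in epidermis, and all 5 of bHLH38, the neighbour of bHLH39, were in pericycle. None of these 3 genes passed the filter on low counts and none was tested.

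Whether the elicitor labels changed the members was asked within each cell type, with the replicate number as a block. No pool held flg22 together with mock libraries in cortex or pericycle, or Pep1 together with mock in pericycle. Pool and label cannot be told apart in these comparisons. No member was called by edgeR for flg22 or Pep1 in any cell type. For flg22, 0% of all genes were called in epidermis, 0% in cortex and 0% in pericycle, and no member had an unadjusted p under 0.05 or a DESeq2 call. Over all genes, 277, 951 and 1320 had an unadjusted p under 0.05 for flg22 in epidermis, cortex and pericycle, and DESeq2 called 0, 19 and 430. The study, which used DESeq2, reported genes responding to flg22 in each cell type, so the flg22 counts depart from its result. For Pep1, 0% of all genes were called in epidermis, 0.459% in cortex and 0.0267% in pericycle. DESeq2 called 789 genes in cortex and 137 in pericycle. The study reported Pep1 genes in each cell type, more than for flg22, so the Pep1 counts depart from its result too. In epidermis and pericycle no member had an unadjusted p under 0.05 for Pep1 or a DESeq2 call, and in cortex FRO2 and AHA2 had both.

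FIT levels overlapped between the labels in every cell type. In epidermis FIT had 257, 229 and 145 CPM in flg22, 125, 220 and 95.6 CPM in Pep1 and 170, 360 and 80.5 CPM in mock (replicates 1, 2 and 3). The flg22 difference of FIT in epidermis was 0.28 (95% interval −0.35 to 0.91) and the Pep1 difference −0.33 (−0.96 to 0.30). In cortex they were 0.52 (−0.05 to 1.09) and 0.39 (−0.18 to 0.96). In pericycle FIT had 4.9, 31.3 and 0.157 CPM in flg22, 9.24, 28.4 and 17.8 CPM in Pep1 and 18.6, 37.2 and 29.5 CPM in mock. The pericycle flg22 difference was −2.05 (adjusted p = 0.727) and −1.06 without pericycle flg22 replicate 3.

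FRO2 in cortex was the member whose labels were furthest apart. Its counts in cortex were 1, 8 and 14 in flg22, 0, 0 and 0 in Pep1 and 13, 22 and 16 in mock, and CPM was 0.293, 1.37 and 1.46 in flg22, 0 in Pep1 and 1.8, 2.81 and 1.82 in mock. The observed values of the 3 labels did not overlap. Between flg22 and Pep1 this rests on the 1 count of flg22 replicate 1 against 0, which counting error does not tell apart. With a floor of 3 counts over the group, the Pep1 level was at most 0.213 CPM, against 2.14 CPM in mock. This ceiling lay 10.03-fold below the mock level and 5.73-fold below the flg22 level. Both folds take the mock and flg22 levels without their own error and are no lower bounds. The edgeR p was 0.00374 and the adjusted p 0.12, so that the difference did not pass the threshold over all genes. Of the 3 cortex Pep1 libraries, 1 was sequenced in the pool of the mock libraries, which leaves too few for a comparison within the pool. In epidermis FRO2 had 8.29, 13.7 and 13.3 CPM in flg22 and 16.6, 18 and 14.6 CPM in Pep1. Mock had 20, 14.2 and 19.3 CPM there. The differences were −0.61 (95% interval −1.20 to −0.02) for flg22 and −0.13 (−0.72 to 0.46) for Pep1. The flg22 interval leaves out 0 because it assumes a normal error, while the edgeR p was 0.0784 (adjusted p = 0.907). In pericycle the FRO2 labels overlapped and replicates of 1 label lay far apart. FRO2 had 1.63, 12.3 and 8.32 CPM in flg22, 18.5, 2.1 and 0.888 CPM in Pep1 and 5.76, 5.6 and 8.71 CPM in mock. Pep1 replicate 1 and flg22 replicate 2, highest in FRO2 there, also had the highest pericycle levels of the root hair gene COBL9 (51.4 and 19.3 CPM). RSL4 and RHD6 were highest in flg22 replicate 2 but not in Pep1 replicate 1. The part of root hair RNA in the pericycle values of FRO2 was not tested.

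AHA2 in cortex had 2980, 2350 and 2090 CPM in flg22, 3350, 4410 and 2080 CPM in Pep1 and 1680, 2180 and 1620 CPM in mock. The Pep1 and mock libraries overlapped, while within each replicate number the Pep1 library was the higher. The Pep1 difference was 0.87 (SE 0.22, 95% interval 0.44 to 1.30), with an edgeR adjusted p = 0.0989. DESeq2 gave an adjusted p of 0.0127, edgeR without the filter on low counts 0.00324, and edgeR without cortex flg22 replicate 2 an adjusted p of 0.0404 (difference 0.82). In the other direction, edgeR called 0 of all genes for Pep1 in cortex without the replicate block. It also called 0 without each cortex Pep1 library in turn and without cortex mock replicate 1. The differences in the other cell types were −0.17 in epidermis and 0.15 in pericycle.

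bHLH39 and MYB10 were tested for the labels in pericycle only. The bHLH39 counts there were 55, 13 and 0 in flg22, 13, 18 and 2 in Pep1 and 10, 16 and 6 in mock, and the labels overlapped. Its differences were −0.03 for flg22 (95% interval −2.01 to 1.95) and 0.08 for Pep1 (−5.55 to 5.71). MYB10 differed by −2.40 for flg22 (−7.32 to 2.52) and by 1.42 for Pep1 (−6.11 to 8.95), intervals too wide to show a change at this depth. A difference of the label effects between cell types was not called for any member in edgeR. The smallest p was 0.0262 for FIT under flg22 (adjusted p = 0.623) and 0.00972 for FRO2 under Pep1 (adjusted p = 0.611), 1 member each had an unadjusted p under 0.05, and DESeq2 called 0. Of all genes, 0.0454% were called for flg22 and 0% for Pep1.

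The replicate number was the other contrast, with the treatment label as a term in the fit. FIT was the only member called, in cortex. Its cortex values (flg22, Pep1, mock) were 8.26, 8.35 and 5.23 CPM in number 3, 41, 39.4 and 26.3 CPM in number 2 and 40.2, 27.3 and 33.3 CPM in number 1. All number 3 libraries lay below all of the others, and numbers 2 and 1 overlapped. The means were 7.28 ± 1.78 CPM in number 3, 35.6 ± 8.09 CPM in number 2 and 33.6 ± 6.44 CPM in number 1 (SD, n = 3 each).

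FIT in cortex was lower in number 3 than in number 1 (difference −2.31, SE 0.30, 4.98-fold lower, edgeR adjusted p = 0.000568) and than in number 2 (difference −2.33, SE 0.30, 5.03-fold lower, adjusted p = 0.00541). The first held without each library in turn (−2.54 to −2.08, highest adjusted p 0.00597), and the second lost its call without cortex Pep1 replicate 2 (−2.23, adjusted p = 0.0522). Numbers 2 and 1 differed by 0.02 (95% interval −0.53 to 0.57). In cortex the share of all genes called was 11.4% for number 3 against 1, 1.77% for 3 against 2 and 1.77% for 2 against 1. The cortex sum of the non-hair markers was 22 to 29.8 CPM in number 3, 34.1 to 47.2 in number 2 and 37.4 to 56.6 in number 1, a smaller step than that of FIT. FIT per non-hair sum was 0.238 to 0.332 in number 3, 0.756 to 1.16 in number 2 and 0.588 to 0.933 in number 1. The cortex sum of the immune genes was 920 to 2470 CPM in number 3, 1280 to 1540 in number 2 and 547 to 723 in number 1. The part of the marker and immune levels in the FIT difference was not tested.

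In epidermis FIT had 145, 95.6 and 80.5 CPM in number 3, 229, 220 and 360 CPM in number 2 and 257, 125 and 170 CPM in number 1 (flg22, Pep1, mock). Numbers 3 and 2 did not overlap, and the difference was −1.35 (SE 0.32, edgeR adjusted p = 0.17). Against number 1 it was −0.78 (adjusted p = 0.211). In pericycle FIT in number 3 differed from number 1 by 0.23 (95% interval −1.79 to 2.25). The test of whether the difference of FIT between numbers 3 and 1 varied with cell type gave a p of 0.039 and an adjusted p of 0.773 in edgeR, so that it was not shown to vary. For these interactions 1 member had an unadjusted p under 0.05 for 3 against 1 and none for 2 against 1, DESeq2 called 0 in both, and 0.00504% and 0.00504% of all genes were called.

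AHA2 had its lowest mean in number 3 in all 3 cell types without passing the test. Its pericycle values (flg22, Pep1, mock) were 700, 820 and 596 CPM in number 3, 1340, 1270 and 1250 CPM in number 2 and 1400, 1460 and 1440 CPM in number 1. Number 3 lay below both others, and its difference from number 1 was −0.99 (SE 0.28, edgeR adjusted p = 0.159). In epidermis the means were 1240 ± 503 CPM in number 3, 3400 ± 1010 in number 2 and 2930 ± 1480 in number 1, with a difference from number 1 of −1.21 (adjusted p = 0.17). In cortex the difference was −0.49 (adjusted p = 0.189). FRO2 had no number difference with an unadjusted p under 0.05.

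Over the members, edgeR called 0 in epidermis for 3 against 1 (5.31% of all genes), where 2 had an unadjusted p under 0.05 and DESeq2 called 1 (AHA2). It called 0 for 3 against 2 (0.0967% of all genes), with 2 members under 0.05 and 2 DESeq2 calls (AHA2 and FIT). For 2 against 1 in epidermis (1.7% of all genes), cortex and pericycle (0.107%) no member was called, had an unadjusted p under 0.05 or was called by DESeq2. In pericycle 3 against 1 (0.673% of all genes) and 3 against 2 (0% of all genes) had 0 edgeR calls and 1 member each with an unadjusted p under 0.05, and DESeq2 called 1 (AHA2) and 0.

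Other genes of iron homeostasis were set beside the members from a list of 53 names, of which the reference named 41, and 32 passed the filter. The list was chosen by role with earlier results of these data known. In epidermis against cortex over all labels 3 were higher and 12 lower (3593 and 3720 among all genes), with a median of −0.41 beside 0.04 for all genes. In epidermis against pericycle 6 were higher and 13 lower (4496 and 4023 among all genes), with a median of −0.72 beside 0.09. In cortex against pericycle 5 were higher and 6 lower (4110 and 3801 among all genes), with a median of 0.16 beside 0.03. In mock libraries the 3 comparisons gave 1 higher and 5 lower, 3 and 6, and 1 and 2, beside 13.3%, 18% and 7.12% of all genes called. These counts include genes near 0 in 1 cell type, which the filter kept through another.

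Of 7 tested genes of uptake and of coumarin synthesis and export, 3 were higher and 2 lower in epidermis than in cortex, and 3 were higher and 0 lower than in pericycle, where 38.2% and 44.5% of all genes were called. ABCG37, which exports iron-mobilising coumarins from the root, had a median of 182 FPKM in epidermis, 51.9 in cortex and 44.1 in pericycle. It was higher in epidermis by 1.69 than in cortex (edgeR adjusted p = 1.13e-07) and by 1.96 than in pericycle (adjusted p = 7.23e-09). AHA1, the close relative of AHA2, had medians of 260, 139 and 118 FPKM in epidermis, cortex and pericycle, with differences of 0.81 (adjusted p = 9.7e-05) and 1.05 (2.29e-06). F6'H1, an enzyme of scopoletin synthesis, was lower in epidermis than in cortex (difference −1.01, adjusted p = 0.00184, and 0.0529 without the replicate block). FRO3, a mitochondrial ferric reductase, was higher in epidermis than in pericycle by 1.52 (adjusted p = 0.000269). FRO4, a relative of FRO2, had 48 counts in epidermis and 0 in cortex and pericycle, and CYP82C4, which makes the coumarin sideretin, had 0 in all libraries.

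Of 17 tested genes of iron storage, chelation, distribution and long-distance transport, 0 were higher and 8 lower in epidermis than in cortex, and 3 were higher and 9 lower than in pericycle, beside the same 38.2% and 44.5%. FER1, an iron-storing ferritin of plastids, had a median of 32.4 FPKM in epidermis, 174 in cortex and 226 in pericycle. It was lower in epidermis than in cortex (difference −2.47, edgeR adjusted p = 5.26e-09) and than in pericycle (−2.92, adjusted p = 3e-10). NAS1, a synthase of the iron chelator nicotianamine, had 10 counts over the epidermis libraries, 66 over cortex and 1203 over pericycle. ZIF1, which moves nicotianamine into the vacuole, had 18, 2084 and 2857 counts in epidermis, cortex and pericycle, and IREG2, a vacuolar transporter of the ferroportin family, had 14, 534 and 759. These 3 passed the filter only through the cell types where they are high, so their counts are a description. FRD3, which loads citrate into the xylem for iron transport, had 11 counts in epidermis, 1 in cortex and 603 in pericycle, which likewise alone took it through the filter. The tallies of this group include these sparse genes, for which the filter favoured a difference.

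Of 7 tested regulators upstream of FIT and the subgroup Ib genes, 0 were higher and 2 lower in epidermis than in cortex, and 0 higher and 4 lower than in pericycle, again beside 38.2% and 44.5% of all genes called. bHLH11, a repressor of iron uptake, had 28 counts in epidermis, 63 in cortex and 2794 in pericycle, and it was not tested in the fits of epidermis alone. It entered the tally of 7 through the other cell types, so the filter favoured a difference and its counts are a description. bHLH115, a subgroup IVc activator of subgroup Ib genes, was lower in epidermis than in cortex (difference −1.30) and than in pericycle (−1.11).

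No gene of the wider list was called for flg22 or Pep1 in any cell type by edgeR. By replicate number there were 1, 1 and 0 calls in epidermis (2 against 1, 3 against 1 and 3 against 2), 2, 3 and 3 in cortex, and 0 in pericycle, beside 1.7%, 5.31% and 0.0967% of all genes in epidermis and 1.77%, 11.4% and 1.77% in cortex. Of these calls 3 held under every alternative, all in cortex. YSL3, a transporter of metal-nicotianamine complexes, was higher in number 2 (252, 271 and 238 CPM) than in number 1 (95.6, 77.5 and 65.9 CPM), by 1.66 (adjusted p = 0.00135). ZIF1 was higher in number 3 (54.6, 72 and 52.2 CPM) than in number 1 (11.7, 20.2 and 21.2 CPM), by 1.71 (adjusted p = 0.0017). BTS, an E3 ligase that restrains the iron deficiency response, was higher in number 3 (132, 170 and 202 CPM) than in number 1 (62.8, 87.3 and 52.3 CPM in flg22, Pep1 and mock), by 1.24 (adjusted p = 0.00944).

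The pattern of FIT over the 27 libraries was most like that of AT2G02610 (Pearson's r of log2 CPM 0.93), AT3G62270 (0.92), AT4G25250 (0.91), MYB66 (0.91) and AT3G01516 (0.90). MYB66 is WER, 1 of the 4 non-hair markers. The r of FIT was 0.49 with AHA2 and 0.39 with FRO2. FRO2 was most like CEP2, AT4G11610 and AT4G09060 (0.91 each), and bHLH39, at low counts, most like BOP2 and AT3G53970 (0.81 each). These values describe libraries that fall into 3 cell types and share pools and replicate numbers, and IRT1 could not be placed because it was not tested.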

How the data were processed

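RNA was sequenced from 27 libraries of sorted root cells. Each deposited file lists unscaled read counts, 1 whole number for each gene. By the methods of the study, the authors aligned read pairs to TAIR10 with STAR and counted exonic reads without regard to strand with LiBiNorm, whereas the processing notes name TopHat2 2.0.14 and HTSeq. Amplified cDNA was sequenced, so reads are not independent molecules and intervals from counts cover counting error only.

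All 10 members were matched by identifier. Left out were 152 mitochondrial, 133 plastid, 5 rRNA and 338 ribosomal protein genes, which left 33634. Gene counts per library ran from 4172741 to 17188823. Fits were made in R 4.3.3 with edgeR 4.0.16 on limma 3.58.1, using TMM scaling, filterByExpr (minimum count 10, minimum total 15), the quasi-likelihood F test and Benjamini-Hochberg adjustment over all genes tested (threshold 0.05). Each cell type was fitted on its 9 libraries with treatment label and replicate number, as the authors' model held condition and batch. Cell types were compared on 9 mock libraries and on all 27, and interactions on all 27. Standard errors come from the difference and the F statistic, and 95% intervals assume a normal error. With few libraries these intervals are narrower than the F test would give. The scripts were tested on simulated data. Alternatives were DESeq2 1.42.0, RLE scaling, total counts, no filter, ribosomal genes kept, no block, other terms, 1 sequencing pool, and each library left out.

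The members and gene lists were chosen with earlier results of these data known. The text names all members, up to 4 other iron genes per role with the smallest p, and the 5 genes most like bHLH39. The same for FIT and FRO2, and the choice of other iron genes called by number or too sparse to test, were made after values were seen. Figures were drawn with matplotlib 3.10.9.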

Additional observations from a re-analysis of the deposited data

How the results depend on the processing

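Over all labels, the differences of FIT between epidermis and both other cell types and that of FRO2 between epidermis and cortex kept their direction and call under every alternative run. Over the members' single values, 2138 alternatives left the call as it was, 15 added a call and 16 ended one, and none reversed a called value. With DESeq2 the members called were 1 for number 3 against 1 and 2 for 3 against 2 in epidermis, 2 for Pep1 in cortex, 1 for number 3 against 1 in pericycle, 2 for epidermis against pericycle in mock libraries and 1 for cortex against pericycle there. With total counts in place of TMM 1 was called for number 3 against 1 in epidermis, and with no filter 1 for Pep1 in cortex. Without the replicate block 3 were called for epidermis against pericycle over all labels, and within the shared sequencing pool 1 for cortex against pericycle. Leaving out 1 library gave 0 to 1 for Pep1 in cortex, 0 to 1 for number 3 against 2 in cortex, 0 to 2 for epidermis against pericycle in mock libraries and 3 to 5 over all labels. Among the other iron genes, BTS reversed between cortex and pericycle within the shared pool (−0.02, adjusted p = 0.974, against 0.59). The causes were not tested. Numbers in the labels do not state a pairing. Deviations of same-number libraries from their label means correlated at −0.21 to 0.65 in epidermis (8 of 9 pairs over 0.1), 0.03 to 0.45 in cortex (7 of 9) and −0.05 to 0.17 in pericycle (2 of 9), with medians of 0.41, 0.32 and 0.07 beside −0.12, −0.07 and −0.04 for different numbers. Same-number libraries thus deviated together in most pairs of epidermis and cortex and in few of pericycle, and the block stands in the model because the study's own held it. Over all genes, the counts called moved more than those of the members. DESeq2 called 690, 1882 and 522 genes for number 2 against 1, 3 against 1 and 3 against 2 in epidermis (281, 879 and 16 in edgeR), 789 for Pep1 in cortex (79), 647 and 810 for number 2 against 1 and 3 against 2 in cortex (305 each), 137 for Pep1 in pericycle (5), 201, 644 and 233 for the numbers in pericycle in the same order (20, 126 and 0), and 2979 for cortex against pericycle in mock libraries (1329). Without the filter edgeR called 822 for Pep1 in cortex, and without the replicate block 0 there, 1535 for epidermis against cortex in mock libraries (2490) and 581 for cortex against pericycle in mock libraries. For the interactions DESeq2 called 272 (flg22), 118 (Pep1), 73 (2 against 1) and 138 (3 against 1), against 9, 0, 1 and 1. Leaving out 1 library gave 0 to 277 for Pep1 in cortex and 1117 to 2298 for number 3 against 1 in cortex (1971). The depth left IRT1, bHLH38, bHLH100, bHLH101 and MYB72 untested in the fits reported.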
